A study of Mus musculus with 15 samples.

Results

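The hypoxia-inducible genes described here are Vegfa, Hif1a, Egln1, Egln3, Bnip3, Ndrg1, Adm, P4ha1, Car9 and Pfkfb3. They were found by gene name among the 25012 genes of the deposited RNA table, and their m6A peaks were found by the matching gene identifier. All 10 were in the table. Of these, 8 had a mean level of at least 1 FPKM (fragments scaled by transcript length and by sequencing depth) over the 3 RNA libraries and belong to the 11591 genes compared below; Adm and Car9 did not reach it. Egln3 reached it only through 1 library, with a mean of 1.10 FPKM, so it was bound to differ between libraries and its place among the genes compared supports nothing.

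The study measured N6-methyladenosine (m6A), a methyl mark on adenosines inside messenger RNA, and the RNA of MPC5, a line of immortalised mouse podocytes that its labelled name gives as a single clone. Control cells were labelled as wild type, grew in standard medium and received no virus. A second group received a virus with an shRNA against METTL3, the enzyme that writes m6A, and the last received that virus and glucose at a labelled 25 µmol/L for 72 h, a unit that no value here checks. Each group held 5 samples (2 input, 2 antibody pull-down and 1 of no stated kind), all under 1 batch label, with no control virus and no glucose without the virus, so virus, shRNA and glucose effects cannot be told apart from each other in full. The RNA values came as 1 library for each group, called the control, sh-METTL3 and glucose libraries, with 54282720, 53655982 and 52807701 counts.

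With 1 library for each condition there was no spread between replicates and no test, and any statement of a higher or lower level concerns only these libraries. Ratios below are ratios of count shares with 95% exact binomial intervals, which cover counting error only, because reads of PCR copies that carry no molecular identifier do not count molecules independently. A gene was counted as higher or lower at a 2-fold ratio after 1 was added to each FPKM value. Of all genes compared, 11.4% were higher and 8.01% lower in sh-METTL3 over control, 8.25% and 3.68% in glucose over control, and 2.81% and 1.85% in glucose over sh-METTL3, and each count of a gene list below stands beside these shares.

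Cells sense oxygen through prolyl hydroxylases, encoded by the Egln genes, which mark the HIF-alpha proteins so that the von Hippel-Lindau complex sends them for destruction. When oxygen is short, or when the enzymes lack iron or their cosubstrate, HIF-alpha persists, pairs with ARNT and binds promoters and enhancers that carry a short core sequence. In the glomerulus, podocytes are the main source of VEGF-A, which crosses the filtration barrier to maintain the endothelium on its other side.

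Mettl3 itself stood at 2.34, 2.42 and 2.49 FPKM in the control, sh-METTL3 and glucose libraries. It was therefore not lower where the shRNA was given, with ratios to the control of 1.05 (0.963 to 1.15) and 1.07 (0.983 to 1.17), and the libraries are named by label only. Across all genes compared, the median log2 ratio was 0.10 for sh-METTL3 over control, 0.16 for glucose over control and 0.06 for glucose over sh-METTL3, and log2 ratios below are given relative to it. Ratios to the control also followed transcript length, as inferred from counts and FPKM, with a Spearman rho across genes of 0.42 and 0.40, against -0.16 for glucose over sh-METTL3. Summed podocyte markers stood at 97.0, 204 and 217 FPKM, with 10 of 12 markers in the table, but Wt1 stood at 0.654, 0.0423 and 0.245 FPKM. Tubular markers summed to 59.0, 172 and 87.9 FPKM, mesangial and fibroblast markers to 18.2, 8.28 and 20.4, leukocyte markers to 5.15, 11 and 10.8, and endothelial markers to 1.52, 1.16 and 3.46, with Pecam1 and Cdh5 at or near 0 in each library. Acta2 made up most of the mesangial and fibroblast sum, at 15.8, 2.94 and 15.2 FPKM, while Pdgfrb of the same list had the opposite order, at 0.554, 4.01 and 2.12. Marker sums thus differed between the libraries that are compared, and their part in the results below was not tested; fewer cells of a type and less RNA per cell cannot be told apart in such bulk RNA.

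Promoter sequence shows where the HIF core lies in these genes. This form was searched, with its reverse complement CACGT, on both strands of the 250 bases before each listed start in mouse build GRCm38.p6. The palindrome CACGTG counts on both strands. The other form of the core, GCGTG, was not searched, so a gene without a match here may still carry it. The promoter table held 9 of the 10 genes, without Ndrg1, and 8 of the 9 carried ACGTG. Adm did not, but its window held CACGC, the reverse complement of the form not searched. Of all 32851 such windows 16.6% held ACGTG on either strand, as did 26.3% of the 7993 compared genes that matched. The whole upstream window of Egln3, the gene with the highest glucose ratio of the 10, is given first (chr12:54203875-54204124, minus strand), then short windows around the core in genes of other roles, written along the gene's strand with the core in capitals. They are Hif1a at chr12:73907785-73907813 (plus strand), Egln1 at chr8:124949306-124949334 (minus), Bnip3 at chr7:138909597-138909626 (minus), P4ha1 at chr10:59323268-59323295 (plus), Car9 at chr4:43506996-43507024 (plus) and Pfkfb3 at chr2:11553973-11554001 (minus).
Egln3: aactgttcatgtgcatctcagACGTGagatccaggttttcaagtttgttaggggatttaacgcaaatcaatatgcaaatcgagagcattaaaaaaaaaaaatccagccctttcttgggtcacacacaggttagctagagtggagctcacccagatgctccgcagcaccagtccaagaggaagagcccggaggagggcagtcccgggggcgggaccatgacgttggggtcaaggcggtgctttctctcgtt
Hif1a: tggctgagagcaACGTGggctggggtggg
Egln1: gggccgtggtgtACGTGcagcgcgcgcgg
Bnip3: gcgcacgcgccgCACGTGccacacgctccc
P4ha1: tgtgacagagcgCACGTagcgagggctg
Car9: ctatttccgatgCACGTacagcccgtcca
Pfkfb3: ctccgcgccgtgACGTGccaagctgtgac
The core began 229 bases before the start in Egln3, 108 in Bnip3, 70 in Hif1a, 68 in Egln1, 60 in Pfkfb3, 18 in Car9 and 16 in P4ha1. Hif1a and Pfkfb3 each had a further CACGTG, 135 bases before the same start in Hif1a and 53 before a second start in Pfkfb3. Vegfa had none in the 250 bases before its main start, and its single match lay before an internal start, within the gene body. The start used for Hif1a was internal too, as the gene begins at 73901375 and the window ends at 73907866. Its matches, like those of Pfkfb3, thus lay within the gene body. The cores of Egln1 and Car9 lay inside the gene span of the RNA table, and that of P4ha1 inside the RefSeq span. A match describes these letters only and shows no binding.

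Vegfa, the podocyte's growth signal to glomerular endothelium (ENSMUSG00000023951, chr17:46016993-46032369, minus strand, GRCm38), stood at 20.5 FPKM in the control, 6.65 in the sh-METTL3 library and 17.4 with glucose, on 7292, 2381 and 6049 counts. The sh-METTL3 library was low, and the other two lay close together. Its ratio was 0.330 (0.315 to 0.346) for sh-METTL3 over control, and 2.85% of genes compared had a lower log2 ratio in that pair. For glucose over sh-METTL3 the ratio was 2.58 (2.46 to 2.71), and for glucose over control 0.853 (0.824 to 0.882). The relative log2 ratios were -1.59, 1.21 and -0.38 in that order. Adding glucose to sh-METTL3 cells thus went with a Vegfa level nearer to that of the control, within 1 library of each kind, and all 3 directions held in each of the 7 alternatives computed for single genes.

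The other VEGF genes did not share the order of Vegfa as a set. Of 7 tested genes in the list of ligands and receptors, Vegfa included, 2 were higher and 2 lower in sh-METTL3 than in control, with a median relative log2 ratio of 0.29, where 0 is the median of all genes. Nrp1, a co-receptor that neurons, endothelium and other cells carry, stood at 0.454, 7.37 and 2.79 FPKM, and Vegfd, a ligand of lymphatic growth, at 1.71, 6.79 and 4.83, both highest where Vegfa was lowest. Vegfc, the other lymphatic ligand, stood at 2.08, 0.419 and 1.47 FPKM, in the order of Vegfa. Against the control, the glucose library had 3 higher and 0 lower, with Nrp2, a co-receptor of VEGF-C, at 8.79, 15.4 and 20.5 FPKM; this count was 1 with the all-gene median subtracted. Against sh-METTL3 it had 1 higher, Vegfa itself, and 1 lower, Nrp1; the count of higher genes was 3 with 0.1 in place of 1 added to each FPKM value, and 3 with count shares. Flt4, the receptor of VEGF-C and VEGF-D, stood at 0.705, 0.832 and 2.22 FPKM. It reached the level of comparison only through the glucose library, so it was bound to be higher there. Its ratios were 3.16 (2.85 to 3.51) for glucose over control and 2.64 (2.39 to 2.91) for glucose over sh-METTL3. Flt4 passed the 2-fold rule in neither pair once 1 was added. The receptor genes Kdr and Flt1, which mark endothelium, stayed below the level of comparison, Kdr at 0.845, 0.575 and 1.24 FPKM.

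Some genes outside the pathway lay very near to Vegfa over the 3 libraries. Among 5505 genes with a mean of at least 5 FPKM, the 5 nearest by Euclidean distance between their pairs of log2 ratios to the control were Stat2, Stbd1, Gsto1, Rsad2 and H2-M3, at distances of 0.0936 to 0.180. Stat2, a transcription factor of the interferon response, stood at 17.8, 5.86 and 16.1 FPKM, and Rsad2, an antiviral interferon-induced enzyme, at 16.2, 4.51 and 14. Stbd1, which binds glycogen, stood at 17.1, 5.61 and 15.5 FPKM. With 3 libraries such likeness is a description of 2 ratios for each gene.

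**Figure D1:**
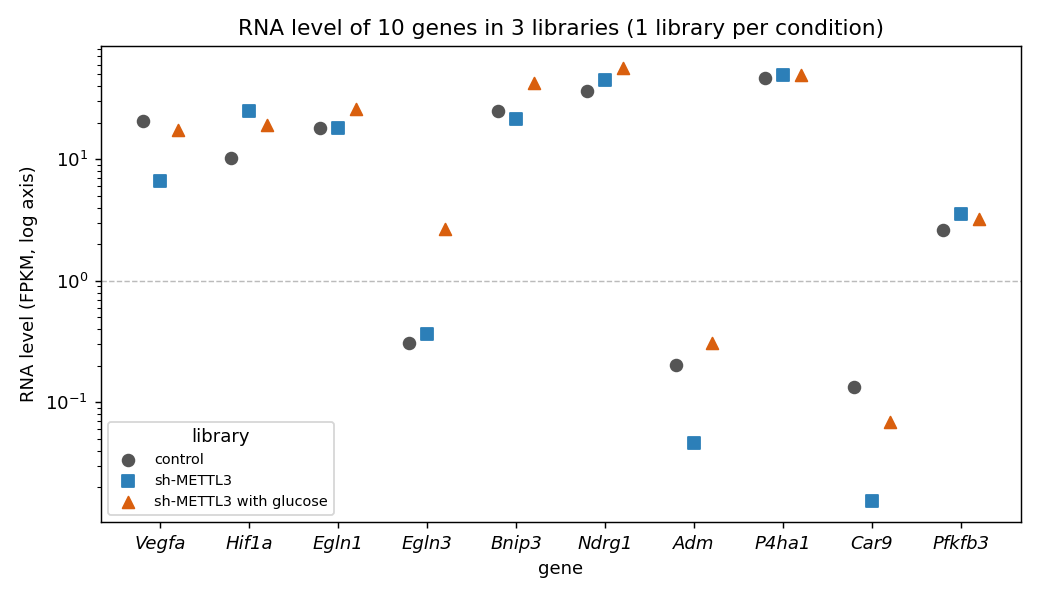
RNA level of the 10 genes in FPKM on a log axis, with 1 point for each library (circle control, square sh-METTL3, triangle glucose) and a dashed line at 1 FPKM. The square of Vegfa lies at 6.65 FPKM, below its other points at 20.5 and 17.4, and the triangle of Egln3 at 2.64 lies above 0.307 and 0.363.

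Hif1a encodes the oxygen-regulated subunit HIF-1alpha, whose abundance is set mainly at the protein level, which was not measured here. Hif1a (ENSMUSG00000021109, chr12:73901375-73947530, plus strand) stood at 10.3, 24.8 and 18.9 FPKM, from 5017, 12186 and 9067 counts. Its control level was the low one, opposite to Vegfa. The ratio was 2.46 (2.38 to 2.54) for sh-METTL3 over control, 1.86 (1.79 to 1.92) for glucose over control and 0.756 (0.736 to 0.777) for glucose over sh-METTL3. Relative log2 ratios were 1.09, 0.67 and -0.43. Hif1a lies in class 8 of 10 classes of rising transcript length, and after the median of that class was subtracted the first log2 ratio was 0.90, under the 2-fold threshold. An antisense gene, Gm15283, overlaps it with 39, 76 and 20 counts beside those of Hif1a.

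Among the other HIF subunits, Arnt, the constant partner, stood at 11.1, 11.6 and 10.6 FPKM, and Arnt2, a related partner, at 3.25, 8.21 and 9.74. Epas1, which encodes HIF-2alpha, was near the floor at 0.0610, 0.0800 and 0.0401 FPKM, and Hif3a was listed at 0 in sh-METTL3 and near the floor in the others. Over the 21 tested genes of HIF subunits and oxygen sensing, 4 were higher and 2 lower in sh-METTL3 than in control, 4 higher and 1 lower in glucose than in control, and 1 higher and 0 lower in glucose than in sh-METTL3, with median relative log2 ratios of -0.05, -0.08 and -0.06. The list median thus sat near that of all genes, with a few members far from it. Egln3, bound to be higher with glucose, is 1 of the 4 higher in glucose over control and the 1 higher in glucose over sh-METTL3. For sh-METTL3 over control, the count of higher genes was 2 with the length class median subtracted, and the count of lower ones was 0 after quantile normalisation and 4 after median-of-ratios scaling. Ep300, an acetyltransferase that HIF recruits, stood at 1.98, 11.1 and 7.20 FPKM, and Cited2, which competes with HIF for that partner, at 17, 56.4 and 49.6. Hsp90aa1, the chaperone that holds HIF-1alpha stable, stood at 390, 177 and 120 FPKM, and Rack1, which promotes its loss when the chaperone is released, at 217, 107 and 137. Vhl, which recognises the hydroxylated protein, stood at 8.07, 4.93 and 6.24 FPKM.

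The prolyl hydroxylases Egln1 and Egln3 belong to the feedback arm, as HIF targets that act against HIF. Egln1, the main oxygen sensor in most cells (ENSMUSG00000031987, chr8:124908587-124949324, minus strand), stood at 18.0, 18.1 and 25.9 FPKM, from 5369, 5425 and 7566 counts. Only the glucose library stood apart. The ratio was 1.02 (0.984 to 1.06) for sh-METTL3 over control, 1.45 (1.40 to 1.5) for glucose over control and 1.42 (1.37 to 1.47) for glucose over sh-METTL3. The log2 ratio of the first turned negative after median-of-ratios scaling, after subtraction of the all-gene median and after subtraction of the median of its length class.

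Egln3 (ENSMUSG00000035105, chr12:54178981-54203860, minus strand), the hydroxylase that hypoxia induces most in many cells, stood at 0.307, 0.363 and 2.64 FPKM, from 68, 81 and 572 counts. It was low in both libraries without glucose and higher with it. The ratio was 8.65 (6.72 to 11.3) for glucose over control and 7.18 (5.68 to 9.17) for glucose over sh-METTL3, the highest of the 10 genes in each pair. For sh-METTL3 over control it was 1.21 (0.862 to 1.69), which counting error alone could place on either side of 1, and its log2 ratio turned negative with the all-gene median subtracted. The relative log2 ratios of 1.32 and 1.36 with glucose understate the count ratios, because 1 was added to low FPKM values. Egln2, the remaining hydroxylase, stood at 6.92, 10.6 and 8.31 FPKM, without that order.

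**Figure D2:**
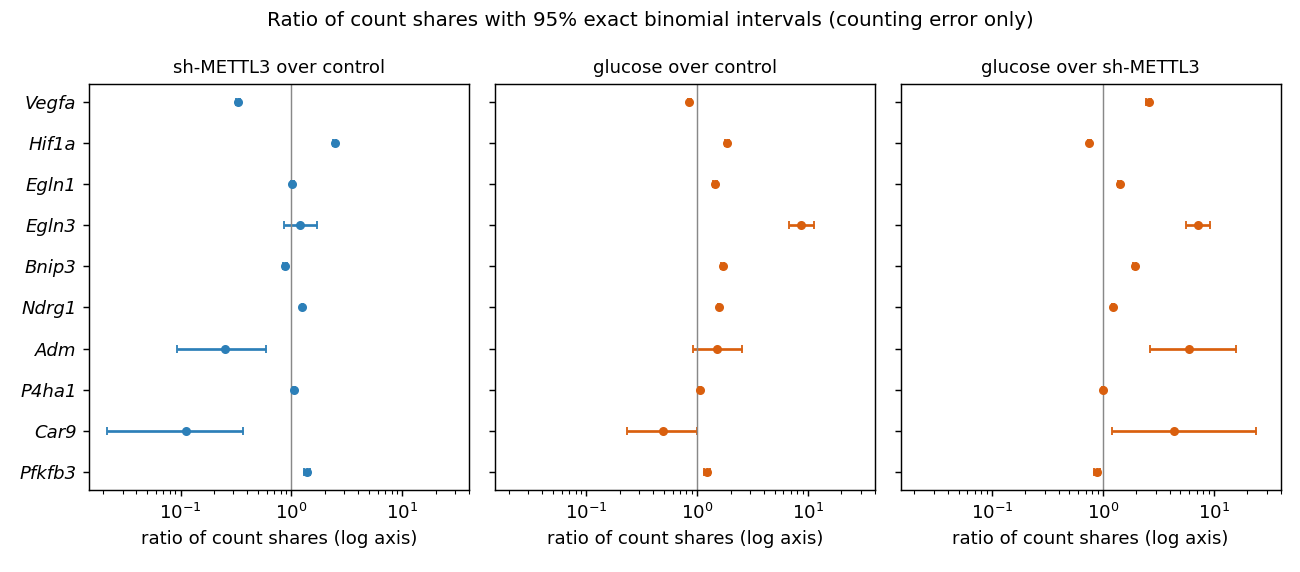
Ratio of count shares of each gene on a log axis in the 3 library pairs, with 95% exact binomial intervals for counting error only and a line at 1. Egln3 lies at 8.65 and 7.18 in the panels with glucose, Vegfa at 0.330 in the first and 2.58 in the last, and the wide intervals of Adm and Car9 come from 3 to 41 counts.

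Bnip3, a mitochondrial protein that drives mitophagy and is among the most direct HIF-1 targets, followed the glucose library as well. Bnip3 (ENSMUSG00000078566, chr7:138890836-138909519, minus strand) stood at 25.0, 21.5 and 42.1 FPKM, from 4700, 4071 and 7753 counts. Its ratio was 1.70 (1.64 to 1.76) for glucose over control and 1.94 (1.86 to 2.01) for glucose over sh-METTL3, just under the 2-fold threshold, while sh-METTL3 over control stood at 0.876 (0.840 to 0.914). The relative log2 ratios were 0.57, 0.88 and -0.31 in that order. Gm18258, a processed pseudogene on the other strand, overlaps it with 9, 3 and 16 counts.

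Ndrg1, a stress-responsive protein of trafficking and differentiation, was highest with glucose and lowest in the control. Ndrg1 (ENSMUSG00000005125, chr15:66929318-66969640, minus strand) stood at 36.6, 45.2 and 56.6 FPKM, from 20003, 24842 and 30373 counts. Its ratio was 1.26 (1.23 to 1.28), 1.56 (1.53 to 1.59) and 1.24 (1.22 to 1.26) for sh-METTL3 over control, glucose over control and glucose over sh-METTL3. Gm2895 on the other strand overlaps it with 6, 5 and 3 counts. The first ratio shrank to a log2 ratio of 0.00 under one of the 7 alternatives.

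P4ha1, a collagen prolyl hydroxylase subunit, was nearly level. P4ha1 (ENSMUSG00000019916, chr10:59323296-59373304, plus strand) stood at 46.7, 48.8 and 49.3 FPKM, from 15940, 16733 and 16487 counts. Both ratios to the control were 1.06 (1.04 to 1.09), and glucose over sh-METTL3 was 1.00 (0.980 to 1.02). These directions turned in all 3 pairs under median-of-ratios scaling and with the all-gene median subtracted, so none is given.

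Pfkfb3 makes the activator of phosphofructokinase and so speeds glycolysis. Pfkfb3 (ENSMUSG00000026773, chr2:11471433-11554077, minus strand) stood at 2.64, 3.56 and 3.19 FPKM, from 1655, 2248 and 1966 counts. Its ratio was 1.37 (1.29 to 1.47) for sh-METTL3 over control, 1.22 (1.14 to 1.30) for glucose over control and 0.889 (0.836 to 0.944) for glucose over sh-METTL3. Both log2 ratios to the control turned negative once the median of its length class was subtracted, so the glucose library did not stand apart for this gene as it did for Egln3.

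Adm, the vasodilator peptide adrenomedullin, and Car9, the cell-surface carbonic anhydrase often read as a sign of hypoxia, were barely expressed. Adm (ENSMUSG00000030790, chr7:110627661-110629820, plus strand) stood at 0.203, 0.0464 and 0.306 FPKM, from 28, 7 and 41 counts, and Car9 (ENSMUSG00000028463, chr4:43506966-43513729, plus strand) at 0.134, 0.0156 and 0.0688, from 27, 3 and 13. Both were lowest in the sh-METTL3 library. An antisense gene, Gm28863, overlaps Adm with 0, 3 and 0 counts, so reads of the 2 may not be fully separate there. For sh-METTL3 over control the ratio was 0.253 (0.0933 to 0.593) for Adm and 0.112 (0.0218 to 0.365) for Car9. For glucose over sh-METTL3 it was 5.95 (2.64 to 15.7) for Adm and 4.4 (1.21 to 24.1) for Car9, and for glucose over control 1.51 (0.909 to 2.53) and 0.495 (0.234 to 0.993). Car9 thus had the order of Vegfa over the libraries, and Adm was highest with glucose, though its interval for glucose over control includes 1 and its log2 ratio there turned negative with the all-gene median subtracted. Of the adrenomedullin receptor genes in the table, Ramp3, an accessory subunit, was the one tested, and it stood at 4.16, 0.692 and 4.15 FPKM.

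By the 2-fold rule, Hif1a was the 1 higher and Vegfa the 1 lower of the 8 genes in sh-METTL3 over control, where 11.4% of all genes compared were higher and 8.01% lower. In glucose over control, Egln3 was the 1 higher and 0 were lower, against 8.25% and 3.68% of all genes. In glucose over sh-METTL3, Vegfa and Egln3 were the 2 higher and 0 were lower, against 2.81% and 1.85%. The first pair lies near the background, and Egln3 adds nothing as a count for the reason given above. Both pairs with the control share that library, so their values are set side by side only.

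By counting intervals alone, glucose over sh-METTL3 lay above 1 for 7 of the 10 genes, below 1 for 2 (Hif1a and Pfkfb3) and across 1 for P4ha1, while 54.9% of all genes compared had a ratio above 1. For sh-METTL3 over control 4 lay above, 4 below and 2 across 1, with 56.6% of all genes above 1. For glucose over control 7 lay above, 2 below and 1 across 1, with 60.4% of all genes above 1. These shares of all genes count any ratio above 1 without an interval and leave out Adm and Car9, so they are not like for like. The median relative log2 ratio of the 8 genes was -0.04 for sh-METTL3 over control, 0.40 for glucose over control and 0.35 for glucose over sh-METTL3. Egln3, which was bound to be higher with glucose, is included in these medians and in the interval counts, so those with glucose follow in part from the filter. Vegfa, Bnip3, Adm and Car9 were lowest in sh-METTL3, Egln1, Egln3, Bnip3, Ndrg1 and Adm were highest with glucose, and Hif1a and Pfkfb3 were highest in sh-METTL3 (Pfkfb3 not once the length class median was subtracted, and Adm not highest with glucose once the all-gene median was). Bnip3 and Adm thus appear in both of the first groups.

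The wider list of targets outside glycolysis had calls in both directions in sh-METTL3 over control and mostly higher ones in the pairs with glucose. Of 31 tested targets outside glycolysis, the 6 compared above included, 3 were higher and 4 lower in sh-METTL3 than in control, 5 higher and 0 lower in glucose than in control, and 6 higher and 1 lower in glucose than in sh-METTL3, with median relative log2 ratios of -0.26, 0.19 and 0.31. Nos2, the inducible nitric oxide synthase, stood at 2.88, 0.0349 and 13.5 FPKM, and Angptl4, an inhibitor of lipoprotein lipase, at 1.05, 0.305 and 12.6. Both were lowest in sh-METTL3 and highest with glucose. Angptl4, like Egln3, reached the level of comparison only through the glucose library, so both were bound to be higher there. Both are among the 5 higher and the 6 higher genes, which therefore follow in part from the filter. Fam162a, a mitochondrial protein, stood at 123, 32.9 and 90.4 FPKM, in the order of Vegfa. Stc2, a secreted glycoprotein of the stress response, went the other way at 0.348, 11.7 and 4.41 FPKM.

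The glycolytic list had calls in sh-METTL3 over control in 1 direction. Of 20 tested, 0 were higher and 5 lower in sh-METTL3 than in control (Gpi1, Tpi1, Gapdh, Pgk1 and Pdk3), with a median relative log2 ratio of -0.74; the count was 1 after quantile normalisation and 5 with the length class median subtracted. The other 15 were not called, and Hk2, Pfkfb3, Pdk1 and Gbe1 had ratios of 1.46, 1.37, 1.36 and 1.25 there. Tpi1, an isomerase of the pathway, stood at 386, 178 and 226 FPKM, and Gapdh, the glyceraldehyde 3-phosphate dehydrogenase, at 77.2, 36.2 and 37.2; these genes have many processed copies among which reads could be split, so their values are uncertain. Against the control the glucose library had 1 higher and 1 lower, with a median of -0.16, and against sh-METTL3 it had 3 higher and 0 lower, with a median of 0.47. Hk2, the inducible hexokinase, stood at 2.42, 3.48 and 10.7 FPKM, and Gys1, glycogen synthase, at 12.2, 7.02 and 18.0.

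**Figure D3:**
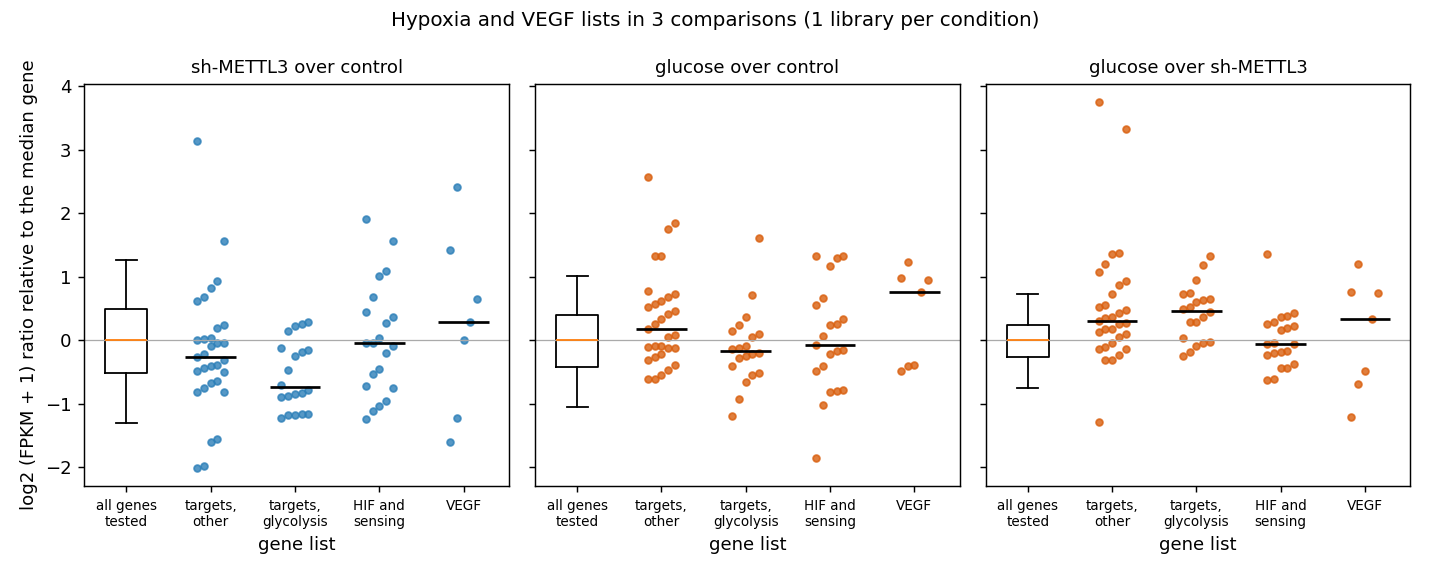
Log2 ratio of (FPKM + 1) of each tested list gene, relative to the median gene, in the 3 library pairs, with the list median as a bar and a box of all genes tested (box quartiles, whiskers from the 5th to the 95th percentile). The glycolytic bar lies at -0.74 in sh-METTL3 over control and at 0.47 in glucose over sh-METTL3.

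The m6A peak lists, 1 for each condition, held peaks in 6 of the 10 genes in the control, 8 in sh-METTL3 and 7 with glucose, against 70.6%, 72.2% and 78.6% of all genes compared. The shares leave out Adm and Car9, which are among the 10: Adm is 1 of the 8 genes in sh-METTL3, and Car9 had no peak. The lists held 14, 14 and 13 peaks of the 10 genes. Vegfa, Hif1a, Egln1, Egln3, P4ha1 and Pfkfb3 had a peak in each list, Ndrg1 in the sh-METTL3 and glucose lists, Adm in the sh-METTL3 list, and Bnip3 and Car9 in none. Bnip3 had none at 21.5 to 42.1 FPKM, and Car9 none with 3 to 27 RNA counts. Of the 14 control peaks, 12 overlapped a sh-METTL3 peak and 13 a glucose peak by at least 1 base. Of the 13 glucose peaks, 10 overlapped a control peak and 9 a sh-METTL3 peak. The same share over all peaks was not computed, so these overlaps describe these peaks only and set the genes apart from no others. Fold enrichments below are the authors' values of pulled-down over input RNA, and each rank holds within its own list.

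Vegfa carried 3 peaks in every list, which the authors' annotation put in the 5'UTR, an intron and the 3'UTR. The 3'UTR peak had a fold enrichment of 9.23, 7.87 and 6.99 in the control, sh-METTL3 and glucose lists, and the 5' peak 9.84, 11.3 and 12.3. The intronic peak had 9.57 (adjusted p 0.0331), 25.0 (adjusted p 1.45e-06) and 37.2 (adjusted p 6.31e-18), all by the authors' peak caller. That peak ranked above 71.1% of the control list, 97.7% of the sh-METTL3 list and 99.3% of the glucose list. Its end nearer to the gene start was the same base in all 3 lists, 46025293, and it spanned 495, 615 and 645 bases. It is absent from the differential tables for all 3 pairs, so no difference between conditions is read from these ranks.

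The part of the intronic Vegfa peak that lies before the internal start is shown, because that peak is the most enriched of Vegfa in the lists of both virus conditions. The 130 bases (chr17:46025164-46025293, minus strand, RefSeq build GRCm38.p6) hold 1 match to the usual m6A context, searched along the transcribed strand. That context is A, G or T, then A or G, then A, C and finally A, C or T. The match AAACT is in capitals. The promoter table covers 180 bases of the peak, and its bases past the start, not shown, hold a further match, TGACC.
Vegfa intronic peak: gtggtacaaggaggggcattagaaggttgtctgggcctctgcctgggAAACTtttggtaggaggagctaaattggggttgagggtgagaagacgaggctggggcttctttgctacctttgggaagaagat
That context is common: 85.4% of the 32851 promoter windows held a match in their last 130 bases before the start, and 11.3% held AAACT itself. The match is therefore a description of the letters under the peak and shows no methylated base.

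The authors' annotation put the main peaks of Egln1 and Egln3 in the 3'UTR. The main Egln1 peak had a fold enrichment of 14.1 in the control list and 9.90 and 12.1 in the others, above 86.0%, 77.6% and 89.0% of each list. It spanned 3845 bases in the control and 38762 and 39331 in the others, introns included, where the control list had a separate peak of 34439 bases beside it. The Egln3 peaks lay in the 3'UTR in every list, with the largest at 9.57 in the control, 6.49 in sh-METTL3 and 13.1 with glucose. These are not 1 site: the control peak of 9.57 (adjusted p 0.0331 by the authors' peak caller) overlapped neither of the others. The control peaks that overlapped them had 8.13 and 4.15. The glucose peak of Egln3 spanned 3689 bases, and its peaks in the other lists were shorter. In the RNA libraries Egln3 had 68, 81 and 572 counts in the control, sh-METTL3 and glucose libraries. The reads under these peaks were not counted here.

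**Figure D4:**
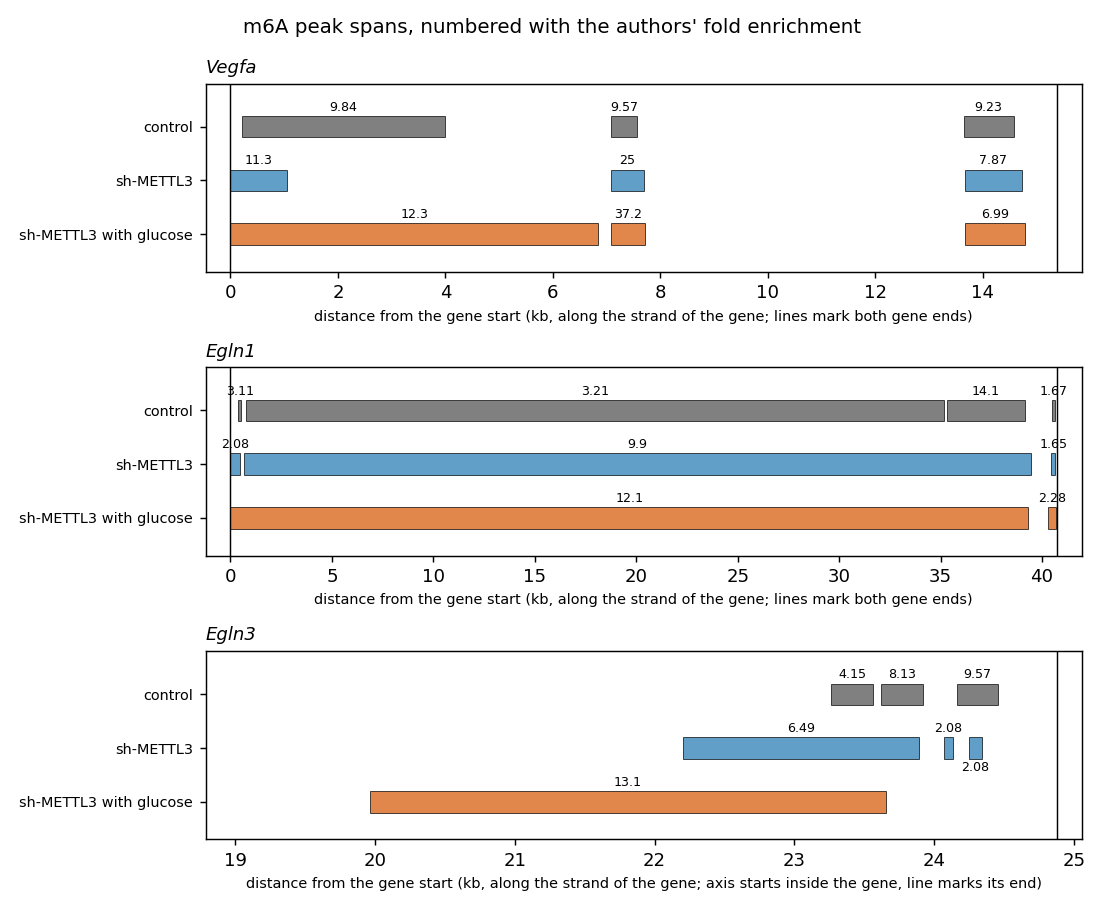
Span of each m6A peak of Vegfa, Egln1 and Egln3 as distance from the gene start in kb, 1 row for each list, numbered with the authors' fold enrichment. The intronic Vegfa peak, numbered 9.57, 25 and 37.2, begins at the same distance in the 3 rows, and the long Egln1 peak covers most of the gene in the lower rows.

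Among the remaining peaks, fold enrichments in the 3'UTR of P4ha1 were 2.46, 1.53 and 2.18 and in that of Pfkfb3 2.26, 2.19 and 2.90. The Hif1a peaks ranged from 1.11 to 2.68, and none in the control or sh-METTL3 list had an adjusted p under 0.05. Ndrg1 had a 3'UTR peak of 1.42 in sh-METTL3 and 1.81 with glucose, and an intronic peak of 14.1 with glucose. The Adm peak in sh-METTL3 had a fold enrichment of 21.9 over 788 bases, in a gene with 7 counts in the sh-METTL3 RNA library.

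The authors' deposited table for sh-METTL3 over control held 1 peak of these genes at an adjusted p under 0.05, in the 3'UTR of Ndrg1, with a log2 fold change of 0.67 (adjusted p 0.0120). Of all genes compared, 14.1% had such a peak in either direction in the authors' deposited table, and 1 of the 8 genes did. How the 2 pull-down and 2 input samples of each condition entered these p-values is not stated by any label or header.

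In the authors' deposited table for glucose over control, 5 of the 8 genes had a peak past that threshold, 5 peaks higher and 1 lower, where 39.1% of all genes compared had one. Ndrg1 again led with a log2 fold change of 0.98 (adjusted p 8.51e-05) at the same 3'UTR peak in the authors' deposited table. The authors' deposited table gave 0.65 (adjusted p 6.61e-08) for the 3'UTR peak of P4ha1, 0.33 (adjusted p 0.00776) for an exonic peak of Hif1a and 0.16 (adjusted p 0.0195) for the long peak of Egln1. Vegfa moved both ways in the authors' deposited table, with 0.35 (adjusted p 0.0339) for its 5' peak and -0.34 (adjusted p 0.000977) for its 3'UTR peak.

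In the authors' deposited table for glucose over sh-METTL3, 2 of the 8 genes had such a peak, against 22.6% of all genes compared. The authors' deposited table gave a log2 fold change of 0.46 (adjusted p 4.57e-05) for P4ha1 and 0.14 (adjusted p 0.0275) for Egln1. Vegfa and Egln3, the genes higher at the RNA level in that pair, had no peak there in the authors' deposited table.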

How the data were processed

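The authors' deposited RNA table holds FPKM and whole-number counts, 1 column of each per condition; 0 sample columns were left unused. The deposited peak lists give the authors' fold enrichment (a ratio) with log10 p and adjusted p values, treated as a score because some lie far below 0; the authors' deposited differential tables give a log2 fold change with a p-value. Tools listed in the submitters' processing notes, with no role stated, are HOMER 4.10, edgeR 4.1, StringTie 2.1.2, HISAT2 2.0.4 and fastp 0.19.4; the build listed is the human GRCh38, although coordinates are those of mouse GRCm38. The peak caller and whether counting used strand are not given in the sources used here. Whether each RNA column was 1 library or pooled input is not given either.

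Peak starts count from 0 and had 1 added, since 2592, 3554 and 4219 peaks began 1 base before their gene and 2, 2 and 2 at it. Signs in the table deposited as sh-METTL3 over glucose were turned. Log2 ratios used (FPKM + 1) over genes with a mean of at least 1 FPKM, and 2-fold calls were made without centring. Named genes are the 10, Mettl3, up to 2 listed genes per direction and pair by size of ratio, and the 5 nearest to Vegfa; Arnt, Arnt2, Epas1, Hif3a, Vhl, Egln2, Kdr, Flt1, Wt1, Pecam1, Cdh5, Gpi1, Pgk1, Pdk1, Pdk3, Gbe1, Flt4, Acta2 and Pdgfrb were added after their values were seen. Genes and lists were chosen with earlier results of these data known. One listed target, one adrenomedullin receptor gene and 12 markers were not analysed here. Scripts used Python 3.11.15, numpy 2.4.6, pandas 2.3.3, scipy 1.17.1 and matplotlib 3.10.9, and were tested on simulated data.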

Additional observations from a re-analysis of the deposited data

How the results depend on the processing

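No paired analysis was possible because the RNA table holds 1 column for each condition, with no replicate number, and the peak tables pool the samples; for the same reason no replicate could be left out. Of the recomputed counts over the 10 genes, 67 stayed within 1.5 times the reported one and 11 did not. With the median of the length class subtracted, 0 genes were higher in sh-METTL3 than in control (Hif1a came under the threshold). At a 1.5-fold threshold 4 were higher in glucose than in control (Ndrg1, Hif1a, Egln3 and Bnip3), against 2694 of all 11591 genes compared. Egln3, bound to be higher with glucose, is 1 of the 4. Without a pseudocount or filter, a setting chosen after seeing the data, 3 were lower in sh-METTL3 than in control (Vegfa, Car9 and Adm). In that setting 5170 of all 25012 genes were lower in that pair. There, 4 were higher in glucose than in sh-METTL3 (Vegfa, Car9, Adm and Egln3), against 4768 of all genes. With peaks limited to those enriched 4-fold or more at an adjusted p under 0.001, 3, 4 and 3 genes had one in the control, sh-METTL3 and glucose lists. The share of all genes with such a peak was not computed. In the authors' deposited tables, at an adjusted p under 0.01, higher peaks numbered 0 for sh-METTL3 over control, 3 for glucose over control and 1 for glucose over sh-METTL3, and all deposited peaks gave 4 for the last. Over all genes, higher calls made up 58.8%, 69.2% and 60.4% of calls in the 3 pairs, 45.2%, 44.6% and 53.8% after median-of-ratios scaling, and 70.3%, 83.9% and 62.4% among protein-coding genes alone. The cause was not tested. Depth limits Adm and Car9, at 3 to 41 counts, and Egln3 in sh-METTL3 over control, at 68 and 81.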

Other observations

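Other listed hypoxia targets, chosen here after their values were seen, give the setting of P4ha1 and Pfkfb3. Among enzymes that modify collagen, P4ha2, a second prolyl hydroxylase subunit, stood at 9.71, 7.27 and 11.7 FPKM in the control, sh-METTL3 and glucose libraries, Plod2, a lysyl hydroxylase, at 22.8, 20.4 and 26.7, and Loxl2, which crosslinks collagen, at 15.0, 25.4 and 27.5. Plod2 had a ratio of 1.29 (1.26 to 1.33) for glucose over sh-METTL3, where P4ha1 had 1.00, and Loxl2 was lowest in the control. Lox, another listed crosslinker of collagen, was lowest with glucose, at 2.51, 2.88 and 2.27 FPKM. Its ratio for glucose over sh-METTL3 was 0.782 (0.715 to 0.854). None of these genes passed the 2-fold rule in any pair. Slc2a1, the basal glucose transporter, stood at 24.7, 16.0 and 33.0 FPKM and was higher by that rule in glucose over sh-METTL3, and Pdk1, which holds pyruvate back from the mitochondrion, at 5.47, 7.33 and 10.8, so both were highest with glucose although Slc2a1 alone was lowest in sh-METTL3.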
